A study of Mus musculus with 6 samples.

Results

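This account follows 10 transcription factors that control the hair follicle lineage, Lhx2, Sox9, Nfatc1, Msx1, Msx2, Foxn1, Dlx3, Gata3, Sox21 and Foxq1, in RNA-seq of mouse dorsal skin. They were chosen by name as regulators of the bulge and the matrix, and all 10 were found among the 21959 genes of the deposited table. Full-thickness skin came from wildtype male C57BL/6 mice, 7 weeks old and shaved in telogen, the resting phase of the hair cycle. For 7 days, 3 mice received vehicle, a mixture of 30% dipropylene glycol and 70% water, and 3 mice received 3% rebamipide, a drug for gastric ulcer, in daily topical applications. Each library came from 1 mouse, and the comparison asks how expression in treated skin differed from vehicle after a week.

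Hair grows from a small epithelial organ that is rebuilt in each cycle. Stem cells rest in the bulge, and their progeny form the matrix of the hair bulb, where dividing cells mature into the layers of the hair shaft and of the inner root sheath that moulds it. Lhx2, Sox9 and Nfatc1 are known from the bulge, where Sox9 specifies stem cells and Nfatc1 holds them quiescent. Msx1, Msx2, Foxn1 and Dlx3 act in the matrix and the differentiating shaft, Gata3 in the inner root sheath, Sox21 in the shaft cuticle and Foxq1 in the medulla. Msx2 and Hoxc13 are known upstream regulators in this lineage, Msx2 of Foxn1 and Hoxc13 of Foxq1.

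Each vehicle library held 38676018 to 39915276 counts in total, and each rebamipide library 32709801 to 34706852. Counts were scaled with TMM factors to normalized CPM (counts scaled to a common library size), and a count of 0 in the third rebamipide library allows up to 3 counts, or 0.114 normalized CPM, for counting error only. Libraries stood apart within both groups. The hair shaft keratin list (14 genes) summed to 7129, 3266 and 46.9 CPM in the vehicle libraries and to 116.8, 1.09 and 0.84 CPM in the rebamipide libraries, so that skins taken in telogen differed widely in genes of the growing hair. The third rebamipide library held 0 counts of Krt14 and 4 of Krt5, keratins that define basal keratinocytes, against 26099 to 64371 and 50427 to 77535 in the vehicle libraries, and this goes against its label as skin. Markers of brown adipocytes (8 genes) had a sum of 203.5 to 354.5 CPM under vehicle and of 4839 to 12694 CPM under rebamipide. Most of the vehicle sum was Elovl3, at 176.0, 128.6 and 238.4 CPM, and at 82.3, 83.1 and 33.3 CPM under rebamipide. Ucp1 had 0 counts in every vehicle library and 81048, 220449 and 150572 counts under rebamipide. Fast skeletal muscle markers (8 genes) ranged from 5071 to 25138 CPM under vehicle and from 259.0 to 32292 CPM under rebamipide. Mitochondrially encoded genes made up 2.59% to 5.36% of counts under vehicle and 13.28% to 21.96% under rebamipide, and the 10 most abundant genes of a library 7.2% to 10.56% and 20.23% to 30.36%. The part of these differences in the results below was not tested.

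All 10 factors had a negative log2 fold change, rebamipide against vehicle, as did 8466 of the 14875 genes tested. For 9 of them the mean was lower in rebamipide-treated skin by 3.45-fold (Msx1) to 23.8-fold (Foxn1). For Nfatc1 it was lower by 1.08-fold, with means of 44.0 ± 19.2 and 40.7 ± 9.23 CPM (SD, n = 3). In bulk tissue, fewer cells of a type and less RNA per cell cannot be told apart. With edgeR's quasi-likelihood test and Benjamini-Hochberg adjustment over the 14875 genes tested, 0 of the 10 passed an adjusted p-value of 0.05 in either direction, where 6.51% of all genes tested were called lower and 14.1% higher. By the unadjusted p-value, 3 were lower at under 0.05, Sox9, Gata3 and Foxn1, where 18.8% of all genes were. These 3 also passed the thresholds of the study, a p-value under 0.05 with a log2 fold change beyond 1 in size, which 14.5% of all genes passed on the lower side. With DESeq2, the tool of the study, 5 passed them, Foxq1 and Msx1 besides, and 18.2% of all genes. DESeq2 called 3 factors lower after adjustment, Sox9, Gata3 and Foxq1, where it called 17.0% of all genes, and limma-voom called 2, Sox9 and Gata3, where it called 6.94%. The median log2 fold change of the 10 was -3.16, and that of all genes tested was -0.17. All 10 passed the filter on low counts.

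The calls depended on single libraries. Without the first rebamipide library 9 factors passed the study's thresholds, as did 19.8% of all genes on the lower side. Without the first or second vehicle library or the second rebamipide library 1 did, Sox9, beside 10.6%, 10.1% and 9.29% of all genes. After adjustment, 2 passed without the first rebamipide library, Sox9 (adjusted p = 0.0303, edgeR) and Msx2 (adjusted p = 0.0393, edgeR), where 12.8% of all genes were called lower. Without the third rebamipide library 1 passed, Sox9 (adjusted p = 0.0444, edgeR), where 2.49% of all genes were. With the third library of each group left out, 4 passed, Sox9, Foxn1, Gata3 and Foxq1, beside 4.71% of all genes. Without the second vehicle library or the second rebamipide library, 0 of all genes tested were called lower after adjustment, so that counts of 0 in these fits are not particular to any list.

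**Figure D1:**
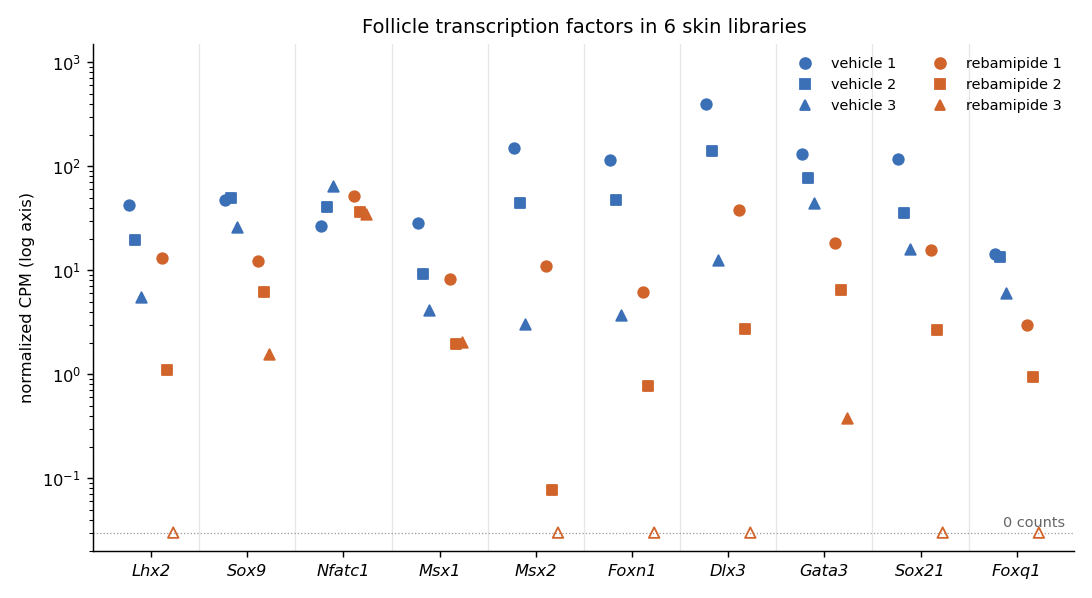
Normalized CPM of each factor (log axis) in the 3 vehicle libraries (blue) and the 3 rebamipide libraries (orange), with 1 point a library and open symbols for 0 counts. The rebamipide values of Sox9, Gata3, Sox21 and Foxq1 lie wholly below vehicle, and Nfatc1 sits between 26.6 and 64.6 CPM in all 6 libraries.

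Among the bulge regulators, Sox9 (ENSMUSG00000000567, chromosome 11, 112673050 to 112678586) encodes an HMG-box factor that marks stem cells and the outer root sheath. It was at 47.6, 49.0 and 26.1 CPM under vehicle and at 12.3, 6.2 and 1.56 CPM under rebamipide. All vehicle values lay above all rebamipide values, and the vehicle libraries differed from each other by only 1.88-fold. By edgeR it had a log2 fold change of -2.61 ± 0.73 (SE, adjusted p = 0.052), the smallest adjusted p-value of the 10. Over the fits that each left out 1 library the value went from -2.14 to -3.39, and without the first or second vehicle library or the second rebamipide library its adjusted p-values were 0.119, 0.155 and 0.171 (edgeR), the last 2 from the fits that called 0 of all genes lower.

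Lhx2 (ENSMUSG00000000247, chromosome 2, 38229293 to 38259745), a LIM-homeodomain factor that maintains the bulge and the hair germ, was at 42.7, 19.7 and 5.5 CPM under vehicle. In the rebamipide libraries it was at 13.0, 1.09 and 0 CPM. The first rebamipide library exceeded the third vehicle library, so the groups overlapped, and the vehicle libraries alone spanned 7.77-fold. By edgeR it had a log2 fold change of -2.27 ± 1.7 (SE, adjusted p = 0.347).

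Nfatc1 (ENSMUSG00000033016, chromosome 18, 80649420 to 80756286), a calcium-responsive factor, is also used by T cells and by lymphatic endothelium. It was at 26.6, 40.9 and 64.6 CPM under vehicle and at 51.4, 36.2 and 34.7 CPM under rebamipide. The first vehicle library, highest for 8 of the 10 factors, was here the lowest of the 6. By edgeR it had a log2 fold change of -0.11 ± 0.36 (SE, adjusted p = 0.835), and it turned to 0.29 without the third vehicle library. The third rebamipide library, with 4 counts of Krt5 and Krt14 together, held 909 counts of Nfatc1, or 89.6% of its counts over the 10 factors, against 2.5% in the first vehicle library. In the same libraries the lymphatic endothelial list (6 genes, none at 0) summed to 71.2 to 186.8 CPM in the vehicle group and 37.8 to 93.0 CPM in the rebamipide group. The T cell list (6 genes in the table, none at 0) summed to 13.5 to 34.6 and 9.2 to 15.1 CPM, and the endothelial list (8 genes) to 261.2 to 614.7 and 1177 to 1656 CPM. For Nfatc1 and for the lymphatic and T cell lists the third vehicle library was the highest of the 6. That library was also highest for the sums of the fibroblast, suprabasal keratinocyte and dermal transcription factor lists. In all of these lists the third rebamipide library was lowest, unlike for Nfatc1. The share of lymphatic endothelial cells and T cells in the Nfatc1 counts was not tested.

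Among the matrix regulators, Msx2 (ENSMUSG00000021469, chromosome 13, 53620920 to 53627110), a homeodomain factor of the matrix and the shaft, was at 151.5, 44.2 and 3.06 CPM under vehicle. It was at 10.9, 0.0779 and 0 CPM under rebamipide, that is 330, 2 and 0 counts. The vehicle libraries spanned 49.6-fold, more than the 18.2-fold between the group means, and the groups overlapped. By edgeR it had a log2 fold change of -4.17 ± 2.24 (SE, adjusted p = 0.212), and it was -10.63 without the first rebamipide library, where the remaining treated libraries held 2 and 0 counts and the fitted size depends on the prior count. Msx1 (ENSMUSG00000048450, chromosome 5, 37977829 to 37981927), its close relative, was at 28.7, 9.14 and 4.17 CPM against 8.17, 1.95 and 2.06 CPM. It kept 54 counts in the third rebamipide library, where Msx2 had 0. The edgeR estimate was, on the log2 scale, -1.78 ± 0.9 (SE, adjusted p = 0.189), and -0.70 without the first vehicle library.

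Foxn1 (ENSMUSG00000002057, chromosome 11, 78248403 to 78277384), the forkhead gene mutated in nude mice, was at 114.9, 47.4 and 3.74 CPM under vehicle and 6.19, 0.779 and 0 CPM under rebamipide. Its edgeR estimate was the largest of the 10, a log2 fold change of -4.56 ± 1.87 (SE, adjusted p = 0.125), and the groups still overlapped through the third vehicle library. Dlx3 (ENSMUSG00000001510, chromosome 11, 95010945 to 95016122), a homeodomain factor needed for shaft and inner root sheath formation, was at 397.8, 139.1 and 12.5 CPM against 38.1, 2.73 and 0 CPM. Its first rebamipide library lay above the third vehicle library, and edgeR gave a log2 fold change of -3.75 ± 2.11 (SE, adjusted p = 0.228). Leaving out the first rebamipide library gave -7.06, and leaving out the first vehicle library gave -2.43.

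The windows of 250 bases before the start sites of Msx2 and Foxn1 are shown because Msx2 is known to act upstream of Foxn1 and the pair shared the order of the 6 libraries. Promoter sequences came from RefSeq on GRCm38.p6, a build other than that of the counts, and 6 of the 10 factors matched an entry (Sox9, Nfatc1, Dlx3 and Foxq1 did not). Both windows are on the minus strand, chr13:53472781-53473030 for Msx2 and chr11:78386609-78386858 for Foxn1, and capitals mark TAATTA, a core that many homeodomain proteins recognize and that reads the same on both strands.
Msx2: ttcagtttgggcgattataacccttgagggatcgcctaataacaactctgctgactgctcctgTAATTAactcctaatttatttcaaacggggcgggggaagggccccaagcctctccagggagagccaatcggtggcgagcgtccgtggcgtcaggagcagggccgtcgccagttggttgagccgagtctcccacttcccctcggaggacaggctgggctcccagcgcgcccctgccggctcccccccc
Foxn1: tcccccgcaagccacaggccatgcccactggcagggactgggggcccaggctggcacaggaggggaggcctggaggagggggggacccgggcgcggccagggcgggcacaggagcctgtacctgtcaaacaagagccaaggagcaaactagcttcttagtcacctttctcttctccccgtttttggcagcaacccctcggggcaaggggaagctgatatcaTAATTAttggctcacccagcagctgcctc
TAATTA began 187 bases before the start of Msx2 and 29 bases before that of Foxn1, and 4.84% of 32851 promoter windows of this length held it. The other 4 matched factors held none. Of the other motifs searched on both strands, the box TATAAA, the TCF/LEF core CTTTGA, the zinc finger site AGATAA, the forkhead core TGTTTA and the SOX core ATTGTT, found in 9.42% to 13.8% of all windows, the matched factors held a single CTTTGA, in Sox21. None of these motifs overlapped another there. The 7 windows of the 6 factors had a GC content of 61.6% to 72.8%, against a median of 52.4% over all windows. A match of letters is a description and not a binding site.

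Of the factors of the sheath, cuticle and medulla, Gata3 (ENSMUSG00000015619, chromosome 2, 9861889 to 9894845), a zinc finger factor that also defines T helper lineages, was at 132.1, 77.2 and 44.5 CPM under vehicle. It was at 18.2, 6.51 and 0.382 CPM under rebamipide, all below vehicle. By edgeR it had a log2 fold change of -3.34 ± 1.2 (SE, adjusted p = 0.0926). With 1 library left out this ran from -2.77, without the third rebamipide library, to -4.61, without the first. The T cell list, summed above, overlapped between the groups. Sox21 (ENSMUSG00000061517, chromosome 14, 118470644 to 118474442) was at 118.2, 35.9 and 16.0 CPM against 15.6, 2.69 and 0 CPM, so that the lowest vehicle and the highest rebamipide library nearly met. The edgeR estimate was, on the log2 scale, -3.21 ± 1.69 (SE, adjusted p = 0.204). Without the first rebamipide library it was -5.39, and without the first vehicle library -2.06. Foxq1 (ENSMUSG00000038415, chromosome 13, 31740117 to 31744959), the gene of the satin coat mutation, was at 14.4, 13.5 and 6.07 CPM against 2.96, 0.935 and 0 CPM. Its groups did not overlap and edgeR put the log2 fold change at -3.11 ± 1.31 (SE, adjusted p = 0.132).

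Every rebamipide library lay below every vehicle library for 4 of the 10 factors, Sox9, Gata3, Sox21 and Foxq1, and 24.0% of all genes tested had this arrangement. In the opposite arrangement, found for 24.5% of all genes, there were 0 of the 10. For 5 of the others, Lhx2, Msx1, Msx2, Foxn1 and Dlx3, the first rebamipide library exceeded the third vehicle library. For Nfatc1 it did not, at 51.4 against 64.6 CPM. In the third rebamipide library 6 factors were at 0 counts, and 4 were not, Nfatc1 (909), Msx1 (54), Sox9 (41) and Gata3 (10).

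**Figure D2:**
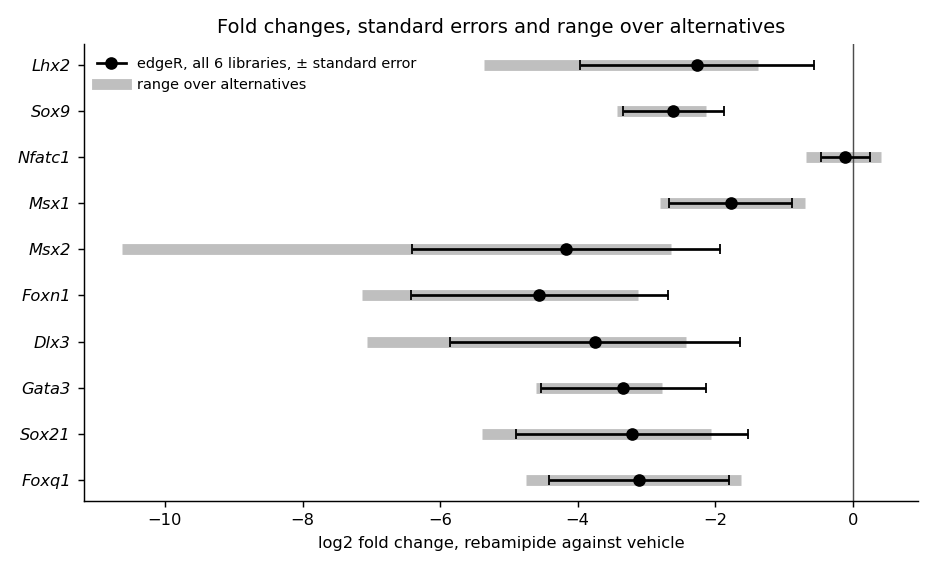
Log2 fold change of each factor, rebamipide against vehicle, from edgeR with all 6 libraries (points, with bars of ± 1 standard error) and its range over the alternative fits (grey), some of which use log2(FPKM + pseudocount). The values of 9 factors stayed below 0 in every alternative shown, between -10.63 and -0.70, and Nfatc1 ranged from -0.69 to 0.40.

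Compared per length, as FPKM (the deposited values, counts scaled by gene length and library total), Dlx3 had the highest mean in the vehicle group, 88.8 ± 96.6 FPKM (SD, n = 3). It was followed by Gata3 (26.6 ± 14.6), Msx2 (25.6 ± 30.0), Foxn1 (21.8 ± 22.3), Sox21 (18.8 ± 18.4) and Sox9 (12.3 ± 4.06), and then by Nfatc1 (7.25 ± 2.98), Lhx2 (6.48 ± 5.51), Msx1 (5.7 ± 5.41) and Foxq1 (2.92 ± 1.23). Each neighbour in this order overlapped the next in its range over libraries. The order was not fixed within the group, since Dlx3 led in the first and second vehicle libraries and Gata3 in the third, where Msx2 was last with 1.13 FPKM. In the rebamipide group the means ran from 4.78 ± 7.61 FPKM (Dlx3) and 4.5 ± 1.63 FPKM (Nfatc1) down to 0.237 ± 0.295 FPKM (Foxq1), again with all neighbours overlapping. Nfatc1 was the highest of the 10 in the second and the third rebamipide libraries.

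The library order of Lhx2, Msx2, Foxn1 and Dlx3 was that of the hair shaft keratin sum and of the inner root sheath sum. The inner root sheath list (8 genes in the table) summed to 24748, 14411 and 280.4 CPM under vehicle and to 1127, 0.74 and 0.382 CPM under rebamipide. Trichohyalin (Tchh), a structural protein of the sheath, had 416919, 298917 and 4854 counts under vehicle and 7565, 13 and 6 under rebamipide. Krt71, a sheath keratin, had 329678, 150336 and 3332 counts against 11284, 0 and 0. Krt33a, a hair shaft keratin, had 57616, 27040 and 360 counts against 395, 0 and 0. Of the 14 hair shaft keratins and 8 sheath genes, 0 passed an adjusted p-value of 0.05 by edgeR, 7 and 2 had an unadjusted p-value under 0.05 on the lower side (18.8% of all genes), and DESeq2 called 5 and 1 lower (17.0% of all genes). The hair keratins are a family of near copies, and reads shared between them could have been split by the counting.

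Gata3, Sox21 and Foxq1 had another order, with all vehicle libraries ahead and the first of each group highest. The sum of the 10 factors and the sums of the other follicle and epidermal transcription factors, listed below, had the same order. So did the cell cycle list (10 genes), at 643.0, 302.4 and 161.2 CPM against 116.0, 31.8 and 4.85 CPM. The basal keratinocyte list (8 genes) summed to 2344 to 4004 CPM under vehicle and 225.7 to 1206 CPM under rebamipide, and the bulge stem cell list (9 genes) to 1055 to 1508 and 358.0 to 735.7 CPM. The bulge list did not move as one, since Postn fell and Lgr6 rose (adjusted p = 0.0101 and 0.0319, edgeR), and Lrig1 was at 84.6 to 96.2 and 97.8 to 104.3 CPM (adjusted p = 0.489, edgeR). Of its 9 genes, 4 were below all vehicle values in every rebamipide library, Krt15, Lgr5, Col17a1 and Postn, as were 24.0% of all genes. Another 2 were above, Lgr6 and Lrig1, as were 24.5% of all genes. In the sums of the basal keratinocyte and bulge lists the second vehicle library was highest. For Sox9 it was highest by a small margin, at 49.0 CPM against 47.6 CPM in the first. Within the vehicle group the first library was lowest in both sums, and the third was lowest for Sox9.

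**Figure D3:**
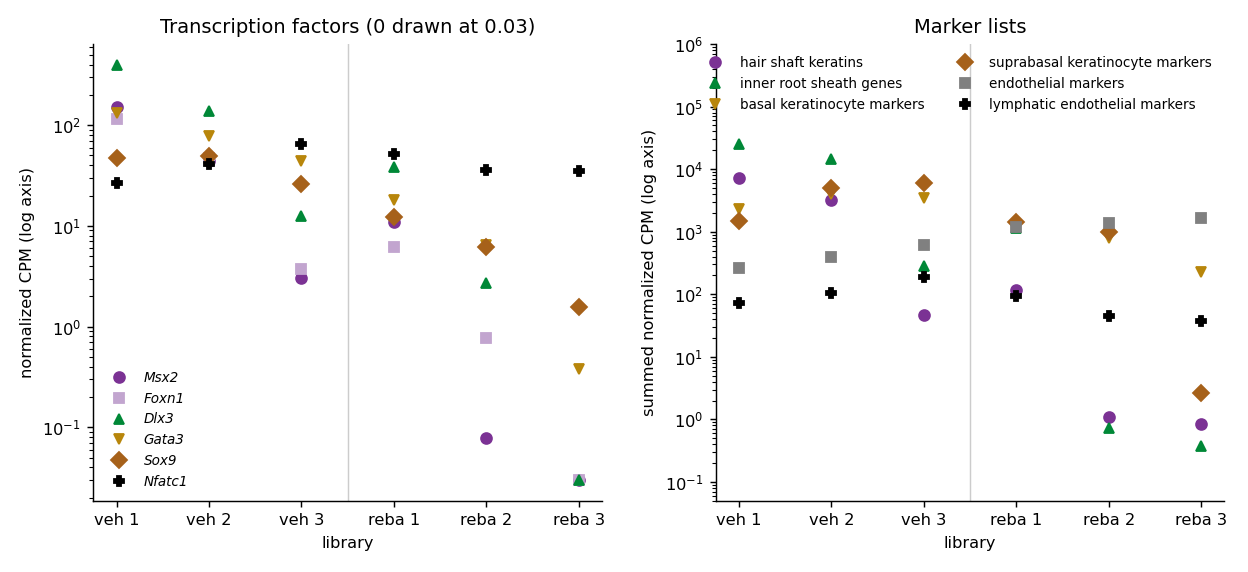
Normalized CPM (log axis) of 6 of the factors (left) and summed normalized CPM of 6 marker lists (right) in each of the 6 libraries (veh, vehicle; reba, rebamipide), with 0 drawn at 0.03. Msx2, Foxn1 and Dlx3 have higher values in the first rebamipide than in the third vehicle library, as do the hair shaft and inner root sheath lists, whereas Nfatc1 stays between 26.6 and 64.6 CPM.

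As a scale chosen after the counts were seen, each factor was also set against the keratinocyte content of its library, as counts per 1000 counts of Krt5 and Krt14 together. These keratins had 76526, 141906 and 116142 counts under vehicle and 24150, 11470 and 4 under rebamipide, and no ratio is given for the last. On this scale 9 of the 10 factors of the first rebamipide library lay within the range of the vehicle libraries. Of the second rebamipide library 5 lay within it and 4 below, Msx2, Gata3, Sox21 and Foxq1. The shares of all genes below, within or above that range were not computed, so these counts have no background. Sox9 was at 31.1, 17.0 and 10.5 under vehicle and at 15.4 and 13.9 under rebamipide. Lhx2 was at 27.9, 6.82 and 2.21 against 16.3 and 2.44. Gata3 was at 86.2, 26.8 and 17.9 against 22.9 and 14.6, where the second rebamipide library was just under the vehicle range. Foxn1 was at 75.0, 16.5 and 1.51 against 7.78 and 1.74, and Msx2 at 98.8, 15.3 and 1.23 against 13.7 and 0.174. Dlx3 was at 259.5, 48.3 and 5.05 against 47.9 and 6.1. Nfatc1 was the exception, at 17.4, 14.2 and 26.0 under vehicle and at 64.6 and 80.9 under rebamipide, both above the vehicle range. As log2 ratios of the group means, Foxn1 was at -2.70, Msx2 at -2.47, Dlx3 at -1.95, Sox21 at -1.32, Gata3 at -1.22, Foxq1 at -0.92, Sox9 at -0.41, Lhx2 at -0.39, Msx1 at -0.10 and Nfatc1 at 1.92. Without the first vehicle library 5 of the 9 negative ratios were above 0 and 4 stayed below it, at smaller sizes. In that case they were -0.91 for Foxn1, -0.29 for Foxq1, -0.26 for Msx2 and Gata3, 0.02 for Dlx3 and 0.09 for Sox9. They were 0.44 for Sox21, 1.05 for Lhx2, 1.59 for Msx1 and 1.86 for Nfatc1. With 2 treated libraries left these ratios carry no test.

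**Figure D4:**
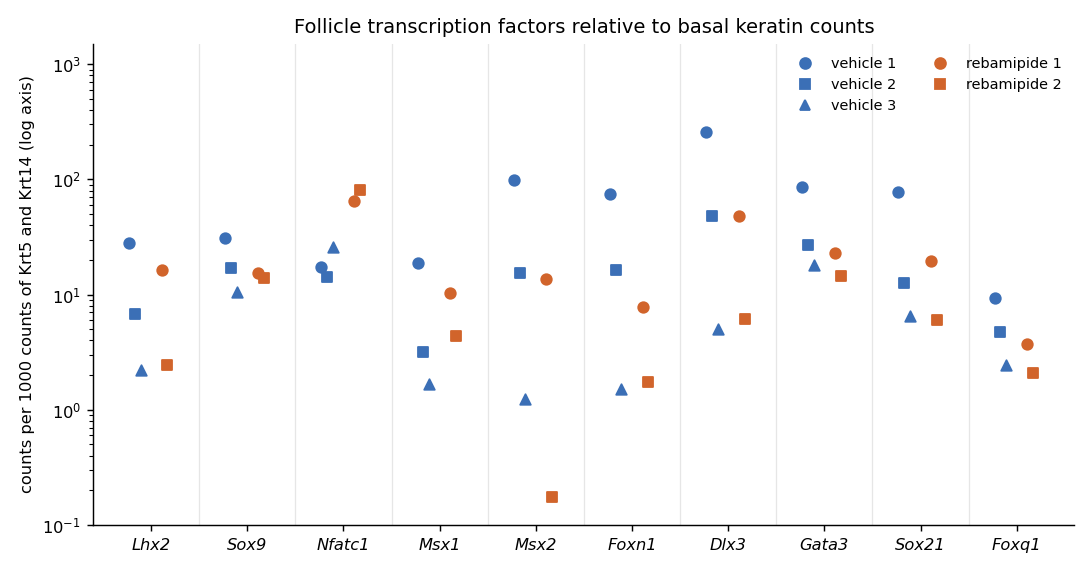
Counts of each factor per 1000 counts of Krt5 and Krt14 (log axis) in the 3 vehicle libraries (blue) and the first and second rebamipide libraries (orange). The first rebamipide library lies within the vehicle range for 9 factors, and Nfatc1 lies above it at 64.6 and 80.9.

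Other regulators of the same tissue were read from fixed lists. Of 22 other follicle transcription factors, 5 fell and 0 rose after adjustment (edgeR, adjusted p under 0.05), with a median log2 fold change of -2.21 over the list, where 6.51% of all genes fell and 14.1% rose. DESeq2 called 10 of the 22 lower (17.0% of all genes), and for 11 of the 22 the groups did not overlap on the lower side (24.0% of all genes). Foxp1 fell from 67.3 ± 29.4 to 21.8 ± 1.23 CPM (edgeR, -1.63 ± 0.33 on the log2 scale, adjusted p = 0.0227). Trps1, whose human counterpart is mutated in a syndrome with sparse hair, fell from 35.8 ± 28.6 to 5.0 ± 0.959 CPM (adjusted p = 0.027, edgeR), and Foxc1, a regulator of stem cell quiescence, from 34.1 ± 11.4 to 5.63 ± 3.33 CPM (adjusted p = 0.0283, edgeR). Rbpj, the DNA-binding partner of Notch, and Hopx, named after its value was seen, were the others (adjusted p = 0.0487 and 0.0455, edgeR). Vdr, the vitamin D receptor, was at 186.9 ± 132.3 and 25.7 ± 25.4 CPM (edgeR, adjusted p = 0.0756) and Cux1 at 229.0 ± 173.5 and 106.8 ± 17.4 CPM (edgeR, adjusted p = 0.211). Without the first or the third vehicle library 2 and 3 of the 22 passed, where 2.52% and 5.51% of all genes were called lower, and without the first or the third rebamipide library 12 and 2, where 12.8% and 2.49% were. Without the second library of either group 0 of the 22 passed, as did 0 of all genes.

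Of 20 epidermal transcription factors 4 fell and 1 rose after adjustment (edgeR, adjusted p under 0.05), against 6.51% and 14.1% of all genes, and the list's median log2 fold change was -2.96. DESeq2 called 14 of the 20 lower (17.0% of all genes), and for 19 of the 20 every rebamipide library lay below every vehicle library (24.0% of all genes). Prdm1 fell from 59.0 ± 19.4 to 6.68 ± 4.58 CPM (adjusted p = 0.0267, edgeR), Elf5 from 28.4 ± 28.2 to 0.84 ± 0.597 CPM (adjusted p = 0.0294, edgeR), and Klf4, a barrier regulator, from 189.0 ± 38.3 to 75.6 ± 27.2 CPM (adjusted p = 0.0375, edgeR). Grhl1, a regulator of desmosome genes named after its value was seen, was the fourth (adjusted p = 0.0493, edgeR). Cebpa rose from 180.2 ± 59.7 to 731.8 ± 153.7 CPM (adjusted p = 0.0146, edgeR), and it is also a factor of adipocytes, whose list (8 genes) summed to 1582 to 4658 CPM under vehicle and 12264 to 21977 CPM under rebamipide. Trp63, the master regulator of the epidermis, was at 242.8 ± 56.0 and 28.9 ± 27.2 CPM (edgeR, adjusted p = 0.102). In the fits without the first or the third vehicle library 0 and 2 epidermal factors passed on the lower side (2.52% and 5.51% of all genes), and without the first or the third rebamipide library 5 and 6 (12.8% and 2.49% of all genes). Without the second library of either group the count was 0, as it was for all genes.

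Of 13 dermal transcription factors tested, 0 fell and 1 rose after adjustment (edgeR, adjusted p under 0.05), with a median log2 fold change of -0.94, where 6.51% of all genes fell and 14.1% rose. Fibroblast markers (8 genes, none at 0) summed to 12351, 14487 and 18846 CPM under vehicle and to 15846, 3724 and 1979 CPM under rebamipide, and their part in the dermal values was not tested. Of the dermal factors, 1 had an unadjusted p-value under 0.05 on the lower side, Prrx1, at 124.7 ± 60.7 and 36.2 ± 22.9 CPM (adjusted p = 0.0817, edgeR), and DESeq2 called 1 lower, where 18.8% and 17.0% of all genes were lower by these criteria. Without the first rebamipide library 4 dermal factors passed on the lower side by edgeR, in the fit that called 12.8% of all genes lower. Sox18, a factor of vessels as well as of the dermal papilla, rose from 9.55 ± 4.04 to 28.1 ± 0.703 CPM (adjusted p = 0.0264, edgeR), and the endothelial list summed above was higher in every rebamipide library. Tbx15 was at 96.1 ± 45.2 and 43.6 ± 49.9 CPM, Tcf4 at 55.2 ± 14.3 and 39.8 ± 10.9 CPM, and Sox2, a marker of some dermal papillae, at 0.949 ± 0.436 and 0.424 ± 0.253 CPM, each overlapping between the groups.

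Relatives of the 10 factors were taken by gene symbol. Of 41 relatives in the Lhx, Sox, Nfatc, Msx, Dlx, Gata, Foxn and Foxq families, 27 passed the filter, and of these 0 fell and 1 rose, Sox18, beside 6.51% and 14.1% of all genes. A negative log2 fold change was found for 17 of the 27, and for 8466 of the 14875 genes tested. Nfatc3 was at 9.16 and 5.91 FPKM in the group means, with a log2 fold change of 0.01 (standard error 0.21), and Foxn3 was at 11.9 and 7.51 FPKM, with -0.02 (standard error 0.25). Sox4 was at 22.0 and 3.87 FPKM, with -1.93 (standard error 0.68, adjusted p = 0.0882, edgeR). Dlx4, the genomic neighbour of Dlx3, was at 19.6, 4.33 and 0.128 CPM under vehicle and 2.86, 0.0779 and 0 CPM under rebamipide, and its first rebamipide library exceeded the third vehicle library, as for Dlx3. Gata2 was at 3.08, 4.77 and 11.2 CPM against 15.6, 19.4 and 20.2 CPM (edgeR, 1.54 ± 0.5 on the log2 scale, adjusted p = 0.0753), higher in every rebamipide library where Gata3 was lower. Lhx6 was at 2.84, 4.04 and 6.54 CPM against 8.03, 6.9 and 6.49 CPM, and the groups overlapped.

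Among all genes tested, the profile nearest to each factor over the 6 libraries was found as the smallest root mean square difference of centred log2 CPM. The nearest to Msx2 was Hoxc13, at 0.38, and the nearest to Lhx2 was Cdh3, the P-cadherin gene, at 0.36. Dlx3 was nearest to Tyrp1 at 0.29 and Foxn1 to Gjb2 at 0.15, and Tyr was the third for Foxn1, at 0.51. Tyr and Tyrp1 encode pigment enzymes of melanocytes. Gata3 was nearest to Top2a at 0.15 and Msx1 to Uhrf1 at 0.16, both genes of dividing cells. Sox9 was nearest to Styk1 (0.12), Sox21 to Bnc1 (0.29), Foxq1 to Evpl (0.14) and Nfatc1 to Dnm3 (0.07). Between the factors, Gata3 and Foxq1 were closest, at 0.24, whereas the factor closest to Nfatc1, Msx1, was at 1.51. The neighbours depended on the scale. With log2(FPKM + 1), 0 of the 3 nearest genes stayed the same for Lhx2, Sox9, Msx1, Foxn1, Gata3, Sox21 and Foxq1. For Nfatc1 and Msx2 1 stayed, and for Dlx3 2 did.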

How the data were processed

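Full-thickness dorsal skin of 3 vehicle and 3 rebamipide mice was profiled by poly-A RNA-seq. The authors deposited raw read counts per gene, whole numbers without normalization, and FPKM in 1 table. The deposited FPKM equal the counts divided by gene length and library total. Per the labels, the submitters' processing notes name fastp 0.22.0, HISAT2 2.1.0, HTSeq 0.9.1 and GRCm39, and gene positions are those of the table. No per-sample column was left unmatched. Counting parameters, strand included, are not given in the sources used here, so reads of a gene and an antisense partner may not be told apart.

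Counts were fitted in R 4.3.3 with edgeR 4.0.16 by its quasi-likelihood test after TMM scaling and filterByExpr, which left 14875 genes, with p-values adjusted by Benjamini-Hochberg. This test replaced DESeq2 (1.42.0), which the study used and which was run as an alternative beside limma 3.58.1. Each library is 1 animal, and replicates differed by far more than counting error (83.1 to 742.3 for chi-square over its degrees of freedom). On simulated counts of this comparison with 200 genes changed 4-fold and a dispersion of 0.1, edgeR recovered 95.5% with 5 false calls among 15018 genes. Recovery was not tested at the wider spread that most of the factors had between replicates.

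The factors and lists were chosen with earlier results of these data known. All 10 factors are named. Of each transcription factor, hair shaft and inner root sheath list, named genes came from the 3 lowest p-values and the 3 largest mean CPM, of each family up to 2 relatives with the highest FPKM, and of each factor's 3 nearest profiles those stated. Promoter letters were read from RefSeq on GRCm38.p6, with no conversion between builds.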

Additional observations from a re-analysis of the deposited data

How the results depend on the processing

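With TMM the median log2 fold change of all genes tested was -0.17, and with total counts alone it was -0.78, under which the log2 fold changes of the 10 factors were -5.05 (Foxn1) to -0.69 (Nfatc1). No factor was called higher in any alternative. The share of all genes called lower after adjustment moved with the setting, from 6.51% in edgeR with all libraries to 4.5% without a filter, 7.0% with RLE factors, 6.94% with limma-voom, 11.9% with at least 10 counts in every library, 17.0% with DESeq2, 25.2% with total counts alone, 32.3% on the log2(FPKM + 1) scale, 32.1% on the log2(FPKM + 0.1) scale, 4.71% with the third library of each group left out, and 0.0% to 12.8% with each library left out. The counts below are to be read against these shares. The number of factors lower at an adjusted p-value under 0.05, 0 in edgeR with all libraries, was 1 with RLE factors, with total counts alone and with at least 10 counts in every library (of the 4 factors that this filter left), 2 with limma-voom, 3 with DESeq2 and with log2(FPKM + 0.1), 4 with log2(FPKM + 1) and with the third library of each group left out, and 0 to 2 with each library left out in turn. The number past the study's thresholds, 3, was 5 with DESeq2, 7 with log2(FPKM + 1) and with the third library of each group left out, 8 with log2(FPKM + 0.1), and 1 to 9 with each library left out, where 14.5% of all genes passed in edgeR with all libraries and 18.2%, 20.5%, 14.8%, 32.5% and 9.29% to 19.8% in these settings. Other follicle factors called lower, 5, were 3 without a filter, 10 with DESeq2 and with log2(FPKM + 1), 9 with log2(FPKM + 0.1) and 0 to 12 with each library left out. Epidermal factors called lower, 4, were 8 with total counts alone, 14 with DESeq2, 19 and 18 with log2(FPKM + 1) and log2(FPKM + 0.1), 11 with the third library of each group left out, and 0 to 6 with each library left out. Dermal factors called lower, 0, were 2 with total counts alone and on either FPKM scale, 1 with DESeq2, and 0 to 4 with each library left out. The cause of these differences was not tested.

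Replicate numbers were entered as a block as well. Same-numbered libraries did not deviate together (correlations over genes -0.02, -0.04 and 0.0). With so few libraries these values cannot exclude a pairing, and the labels do not say whether the numbers pair the mice. Under the replicate block 2 factors were called lower after adjustment, Sox9 and Foxn1 (5.75% of all genes), 9 passed the study's thresholds (14.0% of all genes), and 9 other follicle factors were called lower.

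Of 164 values of the factors' fold changes under the alternatives, 137 kept direction and side of the threshold, 24 kept direction and passed it, and the other 3 were of Nfatc1, of which 2 turned and 1 was at 0.0. Nfatc1 ranged from -0.40 to 0.29 with each library left out and was 0.29 without the third vehicle library, 0.0 without the third rebamipide library and 0.40 with both left out. Per 1000 counts of Krt5 and Krt14, a scale added after the counts were seen, its log2 ratio was 1.92. Depth did not limit the values of the factors in the vehicle libraries, all above 100 counts, while values at 0 in the third rebamipide library are limits only.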
